A study of Mus musculus with 20 samples.

Results

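The knockout of miR-21 was examined in cultured pathogenic TH17 cells, the interleukin-17-producing CD4 T cells grown in IL-23, IL-1β and IL-6 and called TH17(23) in the labels. The 4 RNA-seq libraries were those titled miR-21-/- (replicates 1 and 2) and Control (replicates 1 and 2), out of 20 samples in the series, of which 12 have count tables. Both groups are of the C57BL/6 strain and began as naïve CD4+ T cells from lymph nodes or spleen. They were activated with plate-bound anti-CD3ε (5 µg/ml) and anti-CD28 (2 µg/ml). The medium held 20 ng/ml each of IL-6, IL-1β and IL-23, with 10 µg/ml each of antibodies that block IL-4 and IFN-γ. The labels name no Cre or promoter for the knockout and do not state the age of the mice, the time in culture, or whether a replicate is a separate animal. The title of the series places miR-21 upstream of the ubiquitin ligase Peli1, the NF-κB subunit c-Rel and glycolysis.

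A microRNA is a short RNA that guides the Argonaute protein to messenger RNAs, mostly through pairing of its seed, bases 2 to 8, with sites in the 3′ untranslated region. Pairing lowers the stability or translation of the target, so transcripts of direct targets can rise when the microRNA is lost. miR-21 is induced on T cell activation, and its established targets include the tumour suppressor Pdcd4, the phosphatase Cdc25a and the TGF-β inhibitor Smad7. The transcription factors RORα (gene Rora), STAT3, BATF and IRF4 take part in specifying TH17 cells, and IL-23 signalling supports their inflammatory program.

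The sequences of the deleted microRNA are shown because pairing through the seed is how it recognises targets. They come from RefSeq (GRCm38.p6, the mm10 build named in the submitters' processing notes), with the seed in capitals. The hairpin lies at chr11:86584067-86584158 on the minus strand, within the RefSeq span of Vmp1 (chr11:86583858-86683836), an autophagy gene. In the hairpin the capitals mark both mature arms. Of 1679 mature mouse names in the table, 2 carry this seed, the other being miR-21c of chromosome 8.
mmu-miR-21a-5p: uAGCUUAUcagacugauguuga
mmu-miR-21c: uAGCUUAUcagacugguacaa
mmu-miR-21a-3p: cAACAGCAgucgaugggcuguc
Mir21a hairpin: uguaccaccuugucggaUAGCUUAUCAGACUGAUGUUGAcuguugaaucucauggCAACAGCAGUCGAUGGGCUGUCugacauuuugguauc

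Mir21a itself followed the labels. The precursor gene had 0 counts in both knockout libraries and 25 and 20 counts in the controls, at least 13.9-fold lower when the knockout group is set to a floor of 3 counts in all. These counts come from a total RNA library and do not measure the mature microRNA. The CD4 T cell markers were present in every library, all 10 of 10 tested, with summed levels of 3055 to 3289 CPM (counts scaled to library size by TMM) in the knockout and 3336 to 3477 CPM in the control. No library had a count for the Y-linked genes Ddx3y, Uty, Kdm5d or Eif2s3y, and Xist was at 3168 to 4457 CPM, so the groups did not differ in these sex markers. Gene counts totalled 34805399 and 32766097 in the knockout libraries and 36397176 and 36711252 in the controls. Knockout replicates 1 and 2 had 21.96% and 24.1% of their reads outside annotated genes, beside 20.4% and 18.8% for the controls.

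Replicates within a group differed widely, in a way that followed the replicate numbers. Genotype separated the libraries on the first principal component, which held 69.9% of the variance, with the knockout at −6.54 and −38.3 and the control at 29.7 and 15.1. The second component (24.5%) separated replicate 1 (20.8 and 5.97) from replicate 2 (−6.81 and −20.0). Knockout replicate 1 thus lay closer to the controls than knockout replicate 2 did. Libraries sharing a number deviated together from their groups, with a correlation of 0.664 over the tested genes, but with groups of 2 this is a single value for both pairs, and the labels do not say what a number marks. In a fit holding both terms, edgeR called 1370 genes higher (10.2% of those tested) and 1126 lower (8.39%) in replicate 2. The spread within a group exceeded counting noise, with a chi-square statistic over its degrees of freedom of 62.8 for the knockout and 67.8 for the control, so each library counts as 1 sample.

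Whether single genes passed the threshold depended on how replicate number was handled. Without the replicate number, edgeR's quasi-likelihood test called 0 genes higher (0%) and 0 genes lower (0%) of 13428 at an adjusted p of 0.05. The smallest adjusted p was 0.0625, and 2821 genes had an unadjusted p under 0.05, of which 1289 were higher and 1532 lower in the knockout. With the replicate number as a block, the same test called 2287 genes higher (17.0%) and 2520 lower (18.8%), of which 208 and 676 changed by a factor of 2 or more. By DESeq2, 339 were higher (2.52%) and 485 lower (3.61%) without the block, and 1542 (11.5%) and 1348 (10.0%) with it. All 824 genes called by DESeq2 without the block were also called by edgeR with it, in the same direction. The 2 knockout libraries lay above both controls in 27.0% of the tested genes and below both in 28.9%. In what follows, "rose", "fell" and "called" refer to edgeR with the replicate block (adjusted p under 0.05), a fit with 1 residual degree of freedom of its own, which edgeR supplements with the spread shared over genes. The counts of each gene list are set against the shares of all genes called in that fit, 17.0% higher and 18.8% lower. List counts by DESeq2 with the block have their own shares of all genes, 11.5% higher and 10.0% lower. No gene was called by edgeR without the block, and p-values measure only the spread between these libraries.

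The 2 same-numbered pairs gave ratios of the same sign in 80.8% of the tested genes. The ratios spread further in the second pair (SD of the log2 ratio 0.537) than in the first (0.405).

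**Figure D1:**
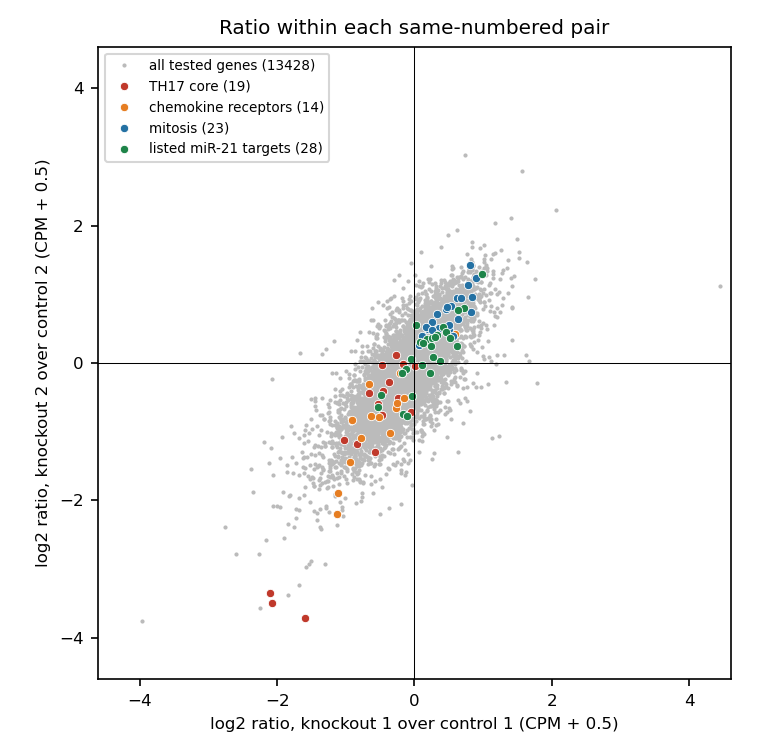
Log2 ratio of knockout to control (CPM with 0.5 added) in replicate 1 (horizontal axis) and replicate 2 (vertical axis) for 13428 tested genes, with 4 gene lists in colour. The TH17 core and chemokine receptor genes lie mostly at the lower left and the mitosis genes at the upper right, while 80.8% of all genes have the same sign in both pairs.

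Listed miR-21 targets were more often higher than lower in the knockout. Of 28 tested targets, 10 rose and 1 fell, against 17.0% and 18.8% of all genes, and their median log2 fold change was 0.21 beside −0.02 for all genes. DESeq2 with the block called 8 higher and 0 lower. Cdc25a, a phosphatase that promotes cell cycle entry, was at 92.5 and 101 CPM in the knockout libraries and 46.7 and 40.9 CPM in the controls. Its log2 fold change was 1.15 (SE 0.101, adjusted p = 3.70e-06 by edgeR with the block, and 0.107 without it). Both knockout libraries lay far above both controls, and replicate number had little influence on this gene.

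Pdcd4, an inhibitor of translation, was at 133 and 170 CPM in the knockout and 80.3 and 97.2 CPM in the control (log2 change 0.77, SE 0.0940, adjusted p = 3.97e-05 by edgeR with the block). Krit1, a regulator of cell junctions, stood at 132 and 167 CPM against 84.6 and 97.6 CPM (0.71, SE 0.0950). In both genes replicate 2 was the higher library of each group, and the groups did not overlap. Smad7 rose by 0.47, Reck by 0.45, Spg20 by 0.45, Fbxo11 by 0.34 and Rasa1 by 0.25. Spg20 overlapped between the groups, at 53.1 and 35.2 CPM in the knockout against 37.0 and 27.3 CPM in the control. The target that fell was Rhob, a small GTPase, at 15.6 and 6.88 CPM against 17.6 and 11.8 CPM (−0.45, adjusted p = 0.0404 by edgeR with the block). The lowest fold change of the list was −1.21, in a member that was not called. Both knockout libraries lay below both controls in 4 of 28 targets and above both in 13, beside 28.9% and 27.0% of all genes.

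Not every listed target moved. Btg2, an antiproliferative gene, was at 74.1 and 89.8 CPM in the knockout and 63.2 and 99.0 CPM in the control (log2 fold change 0.04). Spry1, an inhibitor of MAP kinase signalling, was at 30.4 and 28.7 CPM against 30.0 and 19.3 CPM (0.29, adjusted p = 0.0940 by edgeR with the block). Its relative Spry2 was at 1.10 and 1.50 CPM against 1.82 and 2.63 CPM, at −0.77 and also not called. The list was assembled with earlier results of these data known, so its count is a description.

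**Figure D2:**
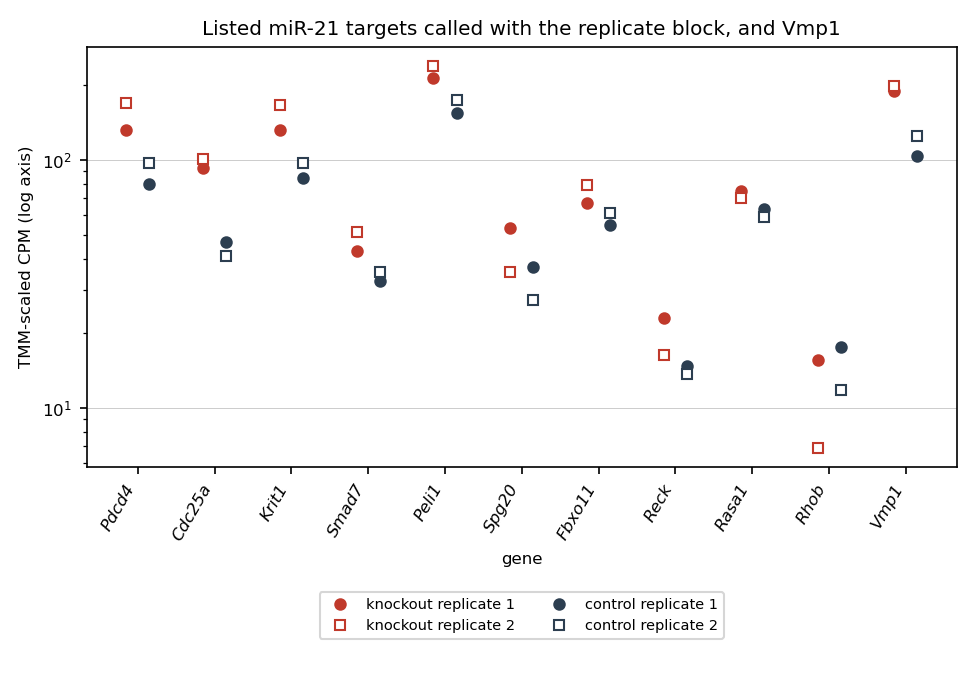
TMM-scaled CPM (log axis) in each of the 4 libraries for 10 listed targets called with the replicate block, and for Vmp1. Circles are replicate 1 and open squares replicate 2; for Cdc25a and Vmp1 both knockout libraries (red) stand well above both controls (dark), while Spg20 and Rhob overlap.

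Around the deleted gene, Vmp1 rose. It was at 191 and 199 CPM in the knockout and 104 and 125 CPM in the control (log2 change 0.77, SE 0.0991, adjusted p = 5.57e-05 by edgeR with the block, and 0.125 without it). Reads of Vmp1 and of primary miR-21 transcripts overlap at this locus, and the counting's strand setting is not given in the sources used here. Tubd1, a tubulin gene 12.5 kb away, was at 9.02 and 9.15 CPM against 5.71 and 6.19 CPM (0.61, adjusted p = 0.0150 with the block). Ptrh2 (−0.02) and Cltc (−0.09), the clathrin heavy chain gene 110 kb away, were not called. Of 15 tested neighbours within 2800 kb, 6 rose and 2 fell, against 17.0% and 18.8% of all genes. DESeq2 with the block called 2 higher and 0 lower, against 11.5% and 10.0% of all genes, so its higher count is near its share.

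TH17 cytokine transcripts had the 3 lowest fold changes of the named genes that averaged 5 CPM or more. Il17f was at 282 and 81.2 CPM in the knockout and 1191 and 920 CPM in the control. Its log2 fold change was −2.78 (SE 0.238, adjusted p = 2.90e-06 by edgeR with the block, and 0.135 without it). Il17a, the signature cytokine, stood at 102 and 21.4 CPM against 440 and 222 CPM (−2.71, SE 0.204, adjusted p = 1.32e-06 with the block). Il22, which acts on epithelial cells, followed at 132 and 15.1 CPM against 402 and 203 CPM (−2.60, SE 0.316). In all 3 genes replicate 2 was the lower library of each group, and both knockout libraries were below both controls. The term for replicate number was itself −1.58 for Il17a, −1.07 for Il17f and −1.97 for Il22 (replicate 2 against 1), each called. Il21, a further TH17 cytokine, overlapped between the groups, at 406 and 377 CPM against 488 and 349 CPM (−0.08).

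Receptor genes of the TH17 program fell with the cytokines. Il23r, the receptor for IL-23, was at 24.6 and 18.1 CPM in the knockout and 50.8 and 39.8 CPM in the control (log2 change −1.09, SE 0.104, adjusted p = 5.73e-06 by edgeR with the block). Ccr6, the receptor for CCL20, was at 18.0 and 4.64 CPM against 40.0 and 23.1 CPM (−1.65, SE 0.193). Il1r1, the signalling receptor for IL-1, was at 37.3 and 29.6 CPM against 51.7 and 50.5 CPM (−0.62, SE 0.105).

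The lineage transcription factors did not move as one. Irf4 was at 628 and 421 CPM in the knockout and 1122 and 949 CPM in the control (log2 change −1.0, SE 0.134, adjusted p = 7.29e-05 by edgeR with the block). Rora was at 73.0 and 106 CPM against 116 and 144 CPM (−0.55, SE 0.0968), and here replicate 2 was the higher library. Batf (−0.09) and Stat3 (−0.16) were not called. Hif1a, the hypoxia factor, passed narrowly (−0.38, adjusted p = 0.0486 with the block). Over the TH17 core list, 12 of 19 tested genes fell and 0 rose, against 18.8% and 17.0% of all genes, with a median of −0.55, and DESeq2 with the block called 11 lower.

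**Figure D3:**
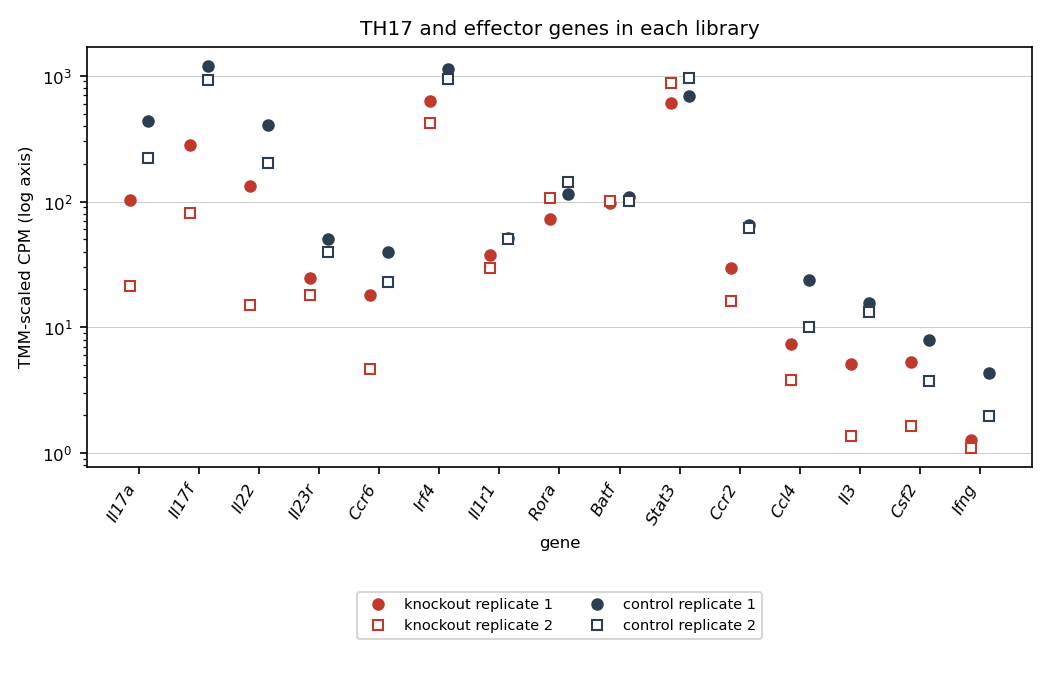
TMM-scaled CPM (log axis) of 15 TH17 and effector genes in each library, circles for replicate 1 and open squares for replicate 2. Il17a, Il17f and Il22 are lowest in knockout replicate 2, at 21.4, 81.2 and 15.1 CPM, and for each of them both knockout libraries lie below both controls.

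Promoters of the 2 leading cytokine genes are shown because Il17a and Il17f had the 2 lowest fold changes in a ranking of called genes. That ranking took genes averaging 5 CPM or more with groups not overlapping, and left out names such as predicted and clone genes. The windows run from 250 bases before to 50 bases after a RefSeq start (GRCm38.p6). Capitals mark AGGTCA, a half-site bound by RORα and other nuclear receptors, searched on both strands. Il17a (chr1:20730655-20730954, plus strand) and Il17f (chr1:20784221-20784520, minus strand) hold 1 match each. The Il17f window lies inside the RefSeq span of that gene (chr1:20777146-20785274), so it is not at the outermost start. The motif was found in 5 of 18 TH17 core genes with a window (27.8%) and in 14.9% of the 10448 tested genes with one. The motif was chosen after the data were seen, and a match describes letters, not a measured binding site.
Il17a promoter: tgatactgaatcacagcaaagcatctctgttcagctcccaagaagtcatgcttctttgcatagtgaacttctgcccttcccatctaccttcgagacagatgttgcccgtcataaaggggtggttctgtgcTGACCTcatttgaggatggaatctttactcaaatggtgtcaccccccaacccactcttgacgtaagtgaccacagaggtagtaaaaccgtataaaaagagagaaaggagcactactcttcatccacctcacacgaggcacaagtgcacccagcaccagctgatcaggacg
Il17f promoter: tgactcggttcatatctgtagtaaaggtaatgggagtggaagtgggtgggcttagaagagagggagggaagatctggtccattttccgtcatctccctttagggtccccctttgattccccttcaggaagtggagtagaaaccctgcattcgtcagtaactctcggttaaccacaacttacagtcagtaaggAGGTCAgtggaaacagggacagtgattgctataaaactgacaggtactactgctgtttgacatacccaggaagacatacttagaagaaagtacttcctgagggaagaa

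Effector genes of pathogenic TH17 cells were lower in 11 of 19 tested members and higher in 2 (median −0.58), against 18.8% and 17.0% of all genes (9 and 0 by DESeq2 with the block). Ccr2, a receptor for inflammatory chemokines, was at 29.6 and 16.2 CPM in the knockout and 64.7 and 61.2 CPM in the control (−1.51, SE 0.145, adjusted p = 5.87e-06 by edgeR with the block). The growth factor gene Il3 was at 5.12 and 1.37 CPM against 15.5 and 13.2 CPM (−2.28, SE 0.277), and the chemokine Ccl4 at 7.35 and 3.81 CPM against 24.0 and 10.0 CPM (−1.57, SE 0.160). Csf2, which encodes GM-CSF, was low throughout and overlapped between the groups, at 5.28 and 1.64 CPM against 7.95 and 3.72 CPM (−0.84, adjusted p = 0.0116 with the block). Tbx21 (0.56) and Casp1 (0.55) were the 2 called higher.

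Genes of the non-pathogenic TH17 program did not move in the opposite direction to the pathogenic ones. Of 8 tested, 4 fell and 1 rose, against 18.8% and 17.0% of all genes. Maf, a factor that drives Il10, was at 2.92 and 3.94 CPM in the knockout and 8.66 and 7.85 CPM in the control (log2 fold change −1.28, adjusted p = 0.000413 by edgeR with the block). Il9 (−2.53), Il1rn (−1.27) and Ahr (−0.61) fell with it, and Il6st, the shared chain of the IL-6 receptor, rose (0.61). Il10 itself was at 0.688 and 2.41 CPM against 1.63 and 1.79 CPM and was not called.

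Markers of other helper lineages fell more often than they rose, 11 against 3 of 20 tested, beside 18.8% and 17.0% of all genes. The higher count is near its share. The transcripts Il13 (−1.67), Il5 (−2.11) and Ccr4 (−1.19), associated with TH2 cells, fell. Ctla4, an inhibitory receptor of regulatory and activated T cells, was at 263 and 320 CPM in the knockout and 580 and 729 CPM in the control (log2 fold change −1.17, SE 0.114). Bcl6, the factor of follicular helper cells, rose from 11.7 and 16.3 CPM in the control to 18.1 and 37.4 CPM (0.92, SE 0.140, adjusted p = 0.000206 by edgeR with the block). Foxp3 was at 1.35 and 1.67 CPM against 0.790 and 0.923 CPM, and was not called (adjusted p = 0.0707).

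Both IL-2 receptor chains described here fell. Il2ra, the high-affinity chain induced on activation, was at 1445 and 919 CPM in the knockout and 2919 and 2415 CPM in the control (log2 change −1.20, SE 0.163, adjusted p = 8.69e-05 by edgeR with the block). Il2rb was at 645 and 561 CPM against 901 and 1001 CPM (−0.66, SE 0.133). Il12rb2 (−0.88) and Il4ra (−0.63) fell as well. In the list of cytokine receptors with JAK, STAT and SOCS genes, 8 of 29 fell and 4 rose, against 18.8% and 17.0% of all genes.

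Chemokine and homing receptors had the largest share of lower genes among the 30 gene lists, 11 of 14 tested and 0 higher (median −0.69), against 18.8% and 17.0% of all genes, and DESeq2 with the block called 8 lower. Beside Ccr2 and Ccr6, the TH2-associated receptor Ccr4 was at 149 and 101 CPM in the knockout and 286 and 275 CPM in the control. S1pr1, the receptor by which T cells leave lymphoid tissue, was at 130 and 114 CPM against 202 and 195 CPM (−0.71, SE 0.0974). Cxcr3, a TH1-associated receptor, fell by 0.69 on the log2 scale but overlapped between the groups (16.9 and 6.65 CPM against 21.9 and 14.0 CPM).

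Costimulatory and inhibitory receptors were also mostly lower, with 11 of 19 tested members down and 1 up, against 18.8% and 17.0% of all genes. Btla, an inhibitory receptor, was at 190 and 157 CPM in the knockout and 381 and 242 CPM in the control (log2 fold change −0.81, SE 0.112). Tnfrsf9, the activation receptor 4-1BB, was at 841 and 779 CPM against 1312 and 1316 CPM (−0.70, SE 0.135, adjusted p = 0.00122 by edgeR with the block). The gene that rose was Lag3 (0.36). Core T cell receptor genes moved little: of 17, 1 rose (Cd3d, 0.47) and 2 fell, among them the costimulatory receptor Cd28 (−0.36). Cd4 was at 729 and 806 CPM against 713 and 756 CPM.

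**Figure D4:**
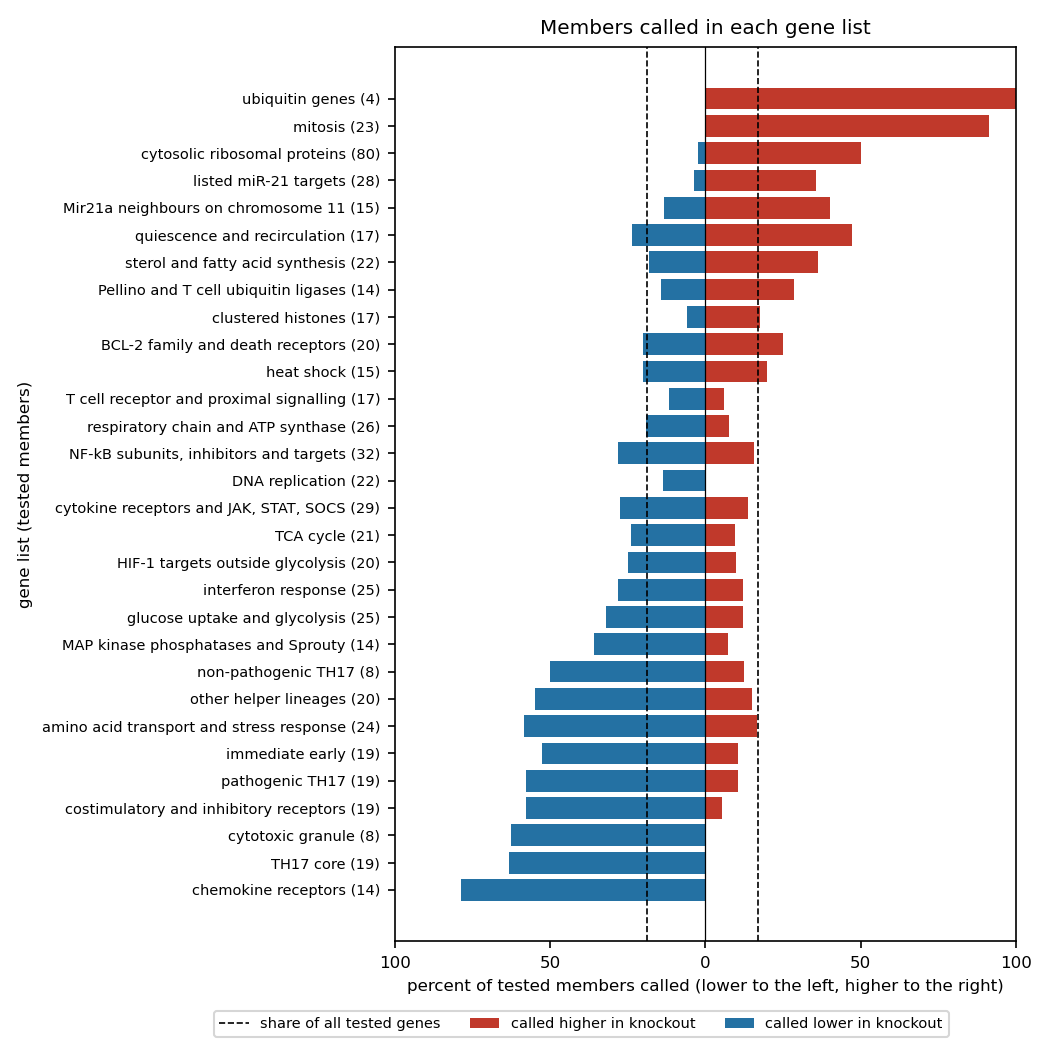
Percent of tested members called higher (red, right) and lower (blue, left) by edgeR with the replicate block in 30 gene lists, with the number tested in brackets; dashed lines mark the shares over all tested genes, 17.0% and 18.8%. Mitosis genes and ribosomal protein genes extend to the right, and chemokine receptors and the TH17 core to the left; some genes belong to more than 1 list.

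Peli1, the ubiquitin ligase in the title, was higher in the knockout. It was at 214 and 239 CPM against 155 and 175 CPM (log2 change 0.46, SE 0.0975, adjusted p = 0.00238 by edgeR with the block, and 0.173 without it). Peli1 is a listed miR-21 target and acts on c-Rel protein, which these data do not measure. The transcript of c-Rel, Rel, was also higher, at 57.2 and 72.4 CPM against 39.0 and 46.7 CPM (0.59, SE 0.0942, adjusted p = 0.000287 with the block). The groups did not overlap for either gene.

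Among 14 tested Pellino and T cell ubiquitin ligases, 4 rose and 2 fell, against 17.0% and 18.8% of all genes, and 8 were not called. Cbl was at 94.0 and 129 CPM in the knockout and 57.1 and 68.4 CPM in the control (0.82, SE 0.0949), Rc3h2 at 108 and 136 CPM against 76.7 and 79.4 CPM (0.64), and Rc3h1, which encodes Roquin, rose by 0.52. Traf6, a ligase of IL-1 receptor signalling, went the other way, at 115 and 96.5 CPM against 172 and 171 CPM (−0.70, SE 0.100). Cblb was not called (−0.01).

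Within the NF-κB list, 5 of 32 tested genes rose and 9 fell, with a median of 0.05. All genes gave 17.0% higher and 18.8% lower. Beside Rel, the subunit Relb rose (0.48), whereas Nfkb1 fell (−0.36) and Rela was not called (−0.05). Lta, the cytokine lymphotoxin-α, was at 267 and 161 CPM in the knockout and 423 and 394 CPM in the control (log2 change −0.98, SE 0.134, adjusted p = 9.38e-05 by edgeR with the block). Il2 was at 16.3 and 2.27 CPM against 18.8 and 11.02 CPM (−1.04) and overlapped between the groups. DESeq2 with the block did not call Il2 (adjusted p = 0.365).

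In glycolysis, named in the title, 8 of 25 tested genes fell and 3 rose, against 18.8% and 17.0% of all genes. Hk2, the inducible hexokinase, was at 185 and 236 CPM in the knockout and 348 and 406 CPM in the control (log2 change −0.85, SE 0.105, adjusted p = 4.24e-05 by edgeR with the block). Pfkl, a phosphofructokinase, was at 187 and 194 CPM against 314 and 336 CPM (−0.77, SE 0.101). The lactate exporter Slc16a3 was at 252 and 319 CPM against 424 and 488 CPM (−0.68, SE 0.109). None of these 3 genes overlapped between the groups.

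The glucose transporters Slc2a3 (−0.77) and Slc2a1 (−0.62) fell too, but Slc2a1 overlapped, at 195 and 441 CPM against 374 and 544 CPM. Its replicate term was 0.86, larger than the genotype difference. Gapdh was at 7212 and 8643 CPM in the knockout and 7538 and 8410 CPM in the control (−0.01, SE 0.219). Pkm (−0.18), Pgk1 (0.18) and Ldha (−0.37, adjusted p = 0.103 by edgeR with the block) were not called, although DESeq2 with the block called Ldha (adjusted p = 0.00847). Eno2, a neuronal enolase, rose from 37.6 and 49.5 CPM to 59.9 and 92.5 CPM (0.79).

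HIF-1 targets outside glycolysis gave 5 lower and 2 higher of 20, against 18.8% and 17.0% of all genes, with Egln3 at −0.54 and Higd1a at −0.49. For this list replicate number mattered more than genotype. In replicate 2, 15 of 20 members were higher and 0 lower, against 10.2% and 8.39% of all genes, with a median replicate term of 0.49. In the TCA cycle 5 of 21 genes fell and 2 rose. Among 26 subunits of the respiratory chain and ATP synthase, 5 fell and 2 rose, and the median was −0.05. The lower counts of both lists lie near the 18.8% of all genes.

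Amino acid and stress response genes were mostly lower. Of 24 tested, 14 fell and 4 rose (median −0.46), against 18.8% and 17.0% of all genes. The higher count is near its share. The biosynthetic enzymes Psph (−0.63), Asns (−0.58) and Psat1 (−0.38) and the transporters Slc7a5 (−0.66) and Slc7a1 (−0.52) were lower. Atf4, the transcription factor that drives many of these genes, rose from 222 and 269 CPM in the control to 297 and 420 CPM in the knockout (0.53, SE 0.107, adjusted p = 0.00166 by edgeR with the block), and Ddit3 rose by 0.46. Myc was at 240 and 86.1 CPM against 287 and 178 CPM (−0.65). It overlapped between the groups, and DESeq2 with the block did not call it (adjusted p = 0.248).

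Mitosis genes rose almost throughout, 21 of 23 tested and 0 lower, against 17.0% of all genes higher, and DESeq2 with the block called 20. Cdc20, the activator of the anaphase-promoting complex, was at 68.5 and 109 CPM in the knockout and 38.9 and 40.1 CPM in the control (log2 change 1.13, SE 0.123, adjusted p = 1.73e-05 by edgeR with the block, and 0.126 without it). The spindle motor Kif11 was at 181 and 357 CPM against 106 and 162 CPM (0.96, SE 0.11). The cyclin Ccnb2 was at 65.3 and 80.2 CPM against 42.1 and 51.2 CPM (0.64, SE 0.0922). Cenpe, a kinetochore motor, overlapped between the groups, at 91.0 and 190 CPM against 50.8 and 97.6 CPM (0.90), and its replicate term was 1.00.

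Replicate number moved the mitosis list in the same direction as genotype, with 18 of 23 genes higher in replicate 2, against 10.2% of all genes. The median replicate term was 0.43, beside a median genotype difference of 0.54. The members not called were Cdk1 (0.25) and Aurkb (0.16). DNA replication genes did not share the increase. Of 22 tested, 0 rose and 3 fell, against 17.0% and 18.8% of all genes. The 3 were Pcna, the polymerase clamp, at 164 and 171 CPM in the knockout against 222 and 264 CPM (−0.53), Pola1 (−0.53) and E2f1 (−0.51). Subunits of the MCM helicase such as Mcm2 (−0.07) and Mcm4 (0.14) were not called. Most of the list leaned lower, with 18 of 22 members below 0, 4 above and a highest value of 0.14. Over all 13428 tested genes, 6972 were below 0. With 1 library left out and no block, the median log2 fold change of the mitosis list stayed above 0. It was 0.84 without knockout replicate 1 and 0.32 without knockout replicate 2. The median was 0.47 without control replicate 1 and 0.81 without control replicate 2.

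Promoters of Cdc20 and Ccnb2 are shown because late cell cycle genes are known to share CCAAT boxes and the cell cycle genes homology region, the CHR element. Capitals mark CCAAT and TTTGAA, the CHR letters, each on both strands, in windows of the same length from RefSeq (GRCm38.p6), and were chosen after the data were seen. Of 17 tested mitosis genes with a window, 16 held CCAAT, 11 held TTTGAA and 11 held both. Over the 10448 tested genes with a window these shares were 42.8%, 14.3% and 6.98%. Among 17 DNA replication genes, 11 held CCAAT, 2 held TTTGAA and 2 held both, so CCAAT was also more frequent there than over all tested genes. Cdc20 (chr4:118437294-118437593, minus strand) has 2 CCAAT and 1 TTTGAA, and Ccnb2 (chr9:70421505-70421804, minus strand) has 3 and 2, with no overlap between the motifs.
Cdc20 promoter: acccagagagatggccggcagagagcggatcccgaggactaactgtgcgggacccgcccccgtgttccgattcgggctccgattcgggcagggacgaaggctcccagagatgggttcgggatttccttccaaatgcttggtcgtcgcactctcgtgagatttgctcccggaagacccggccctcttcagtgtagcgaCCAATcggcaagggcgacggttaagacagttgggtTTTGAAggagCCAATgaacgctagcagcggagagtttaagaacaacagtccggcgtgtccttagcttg
Ccnb2 promoter: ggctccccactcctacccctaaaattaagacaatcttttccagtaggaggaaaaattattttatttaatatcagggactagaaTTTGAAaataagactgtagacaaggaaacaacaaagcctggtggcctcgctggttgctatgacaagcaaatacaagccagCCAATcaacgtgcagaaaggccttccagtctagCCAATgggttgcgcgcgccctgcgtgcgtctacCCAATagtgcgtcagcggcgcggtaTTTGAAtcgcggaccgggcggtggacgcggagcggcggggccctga

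**Figure D5:**
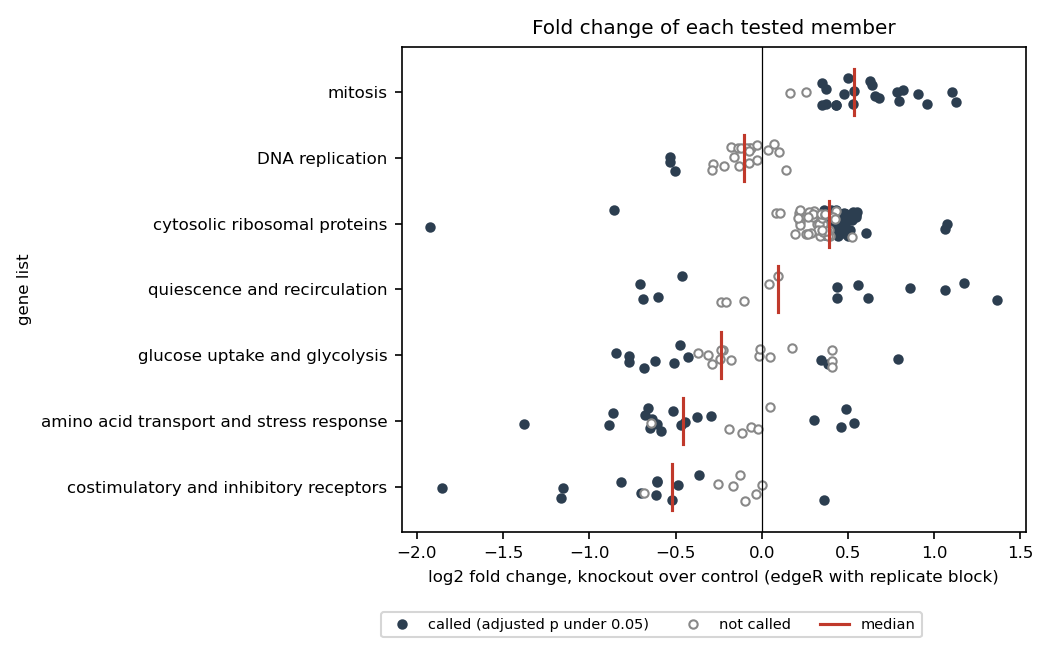
Log2 fold change (knockout over control, edgeR with the replicate block) of each tested member of 7 gene lists; filled points were called, open points were not, and red lines are medians. The mitosis genes lie above 0 and most DNA replication genes below it, with medians of 0.54 and −0.10.

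Cytosolic ribosomal protein genes were slightly higher as a group. Of 80 tested, 40 rose and 2 fell (median 0.39), against 17.0% and 18.8% of all genes. Both knockout libraries lay above both controls in 76, beside 27.0% of all genes, and DESeq2 with the block called 63 higher. The list was drawn by a pattern of gene names, and 1 of the 2 that fell was Rpl7l1 (−0.86). Rpl11 was at 228 and 298 CPM in the knockout and 186 and 180 CPM in the control (log2 fold change 0.51, SE 0.114). Many of these genes have near-identical copies in the genome, and the tables list 0 reads with several alignments, so their counts are uncertain. The 4 ubiquitin-coding genes all rose, against 17.0% of all genes. They were led by Ubb, a polyubiquitin gene, at 214 and 256 CPM against 75.6 and 73.2 CPM (1.65, SE 0.106, adjusted p = 4.08e-07 by edgeR with the block). DESeq2 with the block called 3 of the 4.

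Genes of T cell quiescence moved both ways, 8 higher and 4 lower of 17, against 17.0% and 18.8% of all genes. DESeq2 with the block called 5 and 3. Txnip, an inhibitor of glucose uptake, was at 473 and 630 CPM in the knockout and 214 and 210 CPM in the control (log2 change 1.37, SE 0.124, adjusted p = 4.64e-06 by edgeR with the block). Tcf7, the factor TCF-1 of naïve and memory T cells, was at 337 and 357 CPM against 158 and 175 CPM (1.06, SE 0.102). Pik3ip1, an inhibitor of PI3K, rose by 0.86. The homing genes S1pr1 and Ccr7 (−0.46) and the repressor Bach2 (−0.69) were among those that fell.

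Among BCL-2 family and death receptor genes, 5 of 20 rose and 4 fell, near the 17.0% and 18.8% of all genes. The proapoptotic Bbc3, which encodes PUMA, was at 38.0 and 67.5 CPM in the knockout and 18.2 and 27.4 CPM in the control (log2 change 1.19, SE 0.106, adjusted p = 4.18e-06 by edgeR with the block). Fas, a death receptor, was at 97.9 and 144 CPM against 59.9 and 85.1 CPM (0.73), and Pmaip1, which encodes NOXA, rose by 0.57. The survival gene Bcl2 was at 370 and 380 CPM against 486 and 603 CPM (−0.53). Mcl1 was not called (−0.04).

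Among 14 MAP kinase phosphatase and Sprouty genes, 5 fell and 1 rose, against 18.8% and 17.0% of all genes. DESeq2 with the block called 2 lower and 1 higher, near its shares of 10.0% and 11.5%. Dusp4, a MAP kinase phosphatase, was at 42.3 and 27.0 CPM in the knockout and 97.8 and 63.6 CPM in the control (log2 fold change −1.22, SE 0.0943), and Dusp5 was at −1.38. Of 19 immediate early genes, 10 fell and 2 rose, against 18.8% and 17.0% of all genes. For this list DESeq2 with the block called 6 lower and 1 higher. Ier3 had a replicate term of 1.52 and a genotype difference of −0.66, with 32.6 and 83.2 CPM in the knockout against 45.9 and 147 CPM. Egr1 rose (0.55) while Egr3 fell (−0.69), and both overlapped between the groups.

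Interferon response genes gave 7 lower and 3 higher of 25, against 18.8% and 17.0% of all genes. DESeq2 with the block called 4 lower and 1 higher, against 10.0% and 11.5% of all genes. The median log2 ratio of the list was 0.15 in the first same-numbered pair and −0.49 in the second. The largest falls were in the antiviral membrane genes Ifitm1, at 13.2 and 11.8 CPM in the knockout against 38.0 and 38.4 CPM (log2 fold change −1.61, SE 0.116), and Ifitm3 (−1.26). Mx1 (0.09) was not called. Of 22 sterol and fatty acid synthesis genes, 8 rose and 4 fell, against 17.0% and 18.8% of all genes. With RLE scaling and the block, 12 were higher. The fatty acid enzymes Acly (−0.82) and Elovl6 (−0.74) fell, and the sterol genes Hmgcs1 (0.61) and Insig1 (0.56) rose. Cytotoxic granule genes gave 5 lower of 8, against 18.8% of all genes, and DESeq2 with the block called 3. Prf1, perforin, was among the 5, at 3.52 and 2.64 CPM against 5.98 and 6.16 CPM (−0.98). Heat shock genes gave 3 higher and 3 lower of 15, near the 17.0% and 18.8% of all genes. Clustered histone genes gave 3 higher and 1 lower of 17, where the higher count is also near its share.

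The 10 highest fold changes were ranked among called genes with an average level of 5 CPM or more and groups not overlapping. Predicted, clone, immunoglobulin, T cell receptor segment, Y-linked and Xist names were left out, here and among the lowest. The 10 were Ubb, Arrdc4, Mcam, Glrx, Neurl1b, Psrc1, Ddah2, Rnf167, Rassf4 and Lonrf3, ranging from 1.65 for Ubb down to 1.41 for Lonrf3. Arrdc4, an arrestin-domain relative of Txnip, was at 20.4 and 24.7 CPM in the knockout and 6.77 and 7.74 CPM in the control (1.63, SE 0.136). Psrc1, a spindle protein gene, was at 176 and 258 CPM against 72.8 and 82.1 CPM (1.46, SE 0.109). Rnf167, a ubiquitin ligase gene, stood at 121 and 142 CPM against 46.8 and 50.04 CPM (1.44, SE 0.0945).

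Among the lowest, beside the cytokines, were Ido1 and Ido2, neighbouring genes for tryptophan-degrading enzymes. Ido1 was at 12.1 and 6.15 CPM in the knockout and 44.5 and 33.1 CPM in the control (log2 fold change −2.13, SE 0.139), and Ido2 at 7.65 and 1.97 CPM against 23.8 and 18.9 CPM (−2.30, SE 0.255). Adam19, a metalloprotease gene, was at 24.6 and 10.2 CPM against 72.4 and 81.2 CPM (−2.22, SE 0.217). Sncb (−2.33), Coch (−2.13) and Myh11 (−2.08) completed the 10 with Il3, Il17a, Il17f and Il22.

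Atp6v0e2, a subunit gene of the vacuolar proton pump, had the smallest p without the block. It was nearly absent from the knockout, at 0.165 and 0.234 CPM against 9.90 and 9.39 CPM (log2 fold change −5.59, SE 0.313 with the block and 0.340 without it). The other 4 genes of smallest p in that fit were Ubb, Myh11, Ifitm1 and Alpk2, each with an adjusted p of 0.0938 by edgeR without the block. Alpk2 was at 34.6 and 32.1 CPM in the knockout against 83.0 and 88.8 CPM (−1.36).

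Markers of other cell types were low, but some moved with genotype. The 13 myeloid markers summed to 20.6 and 29.8 CPM in the knockout and 13.1 and 13.0 CPM in the control. Most of that was Cd68 (15.5 and 20.9 CPM against 7.48 and 7.19 CPM), and C1qb and S100a9 had no count in any library. The 7 markers of CD8 T or NK cells summed to 11.2 and 8.55 CPM in the knockout and 16.9 and 19.5 CPM in the control, with Ncr1 and Klrb1c at 0 counts. The B cell list summed to 24.2 and 39.7 CPM against 47.6 and 57.6 CPM, mostly from Ebf1. Its largest member was at 19.4 and 21.4 CPM in the knockout and 42.5 and 44.6 CPM in the control. Of its 6 tested members, 4 were called higher in replicate 2 (median replicate term 1.47), against 10.2% of all genes. The 9 stromal markers summed to 96.9 and 85.0 CPM against 226 and 262 CPM, carried by Myh11 and Pecam1. The erythroid and platelet markers stayed at 2.03 CPM or below, and the 6 TH17 markers summed to 639 and 373 CPM against 1976 and 1495 CPM. The part of these cells in the results was not tested, and in bulk samples fewer cells of a type and less RNA per cell cannot be told apart.

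Some of these lists stood in the opposite direction, and others in the same one, in another experiment of the series, where Ad-c-Rel was compared with Ad-control in TH17(β) cells (4 other libraries, edgeR without a block, a comparison added after seeing the data). There 8.16% of 11711 tested genes were called higher and 6.12% lower. All 23 mitosis genes were lower with Ad-c-Rel (median −1.23), beside 21 of 23 higher in the knockout. Of the TH17 core, 13 of 19 were higher with Ad-c-Rel (median 0.59), beside 12 of 19 lower here. Costimulatory and inhibitory receptors gave 14 higher of 18 and immediate early genes 13 of 18, against 11 and 10 of 19 lower in the knockout. DNA replication genes gave 9 of 22 lower with Ad-c-Rel and 3 of 22 in the knockout. Listed miR-21 targets gave 5 of 27 and 10 of 28 higher. Ribosomal protein genes gave 2 of 79 higher with Ad-c-Rel. Over 11614 genes tested in both, the fold changes had a Pearson r of −0.19 and a Spearman rho of −0.19, across genes that are not independent. These directions were not tested, and the cultures differ.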

How the data were processed

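TH17(23) cultures of miR-21-/- and Control mice were sequenced from total RNA with a stranded TruSeq kit, per the labels' protocols. The authors deposited raw counts per gene symbol. The submitters' processing notes name Trim Galore 0.4.4, TopHat2 2.1.0, HTSeq 0.11.0, DESeq2 and mm10, with no role or order. The strand setting is not given in the sources used here. Of 24862 gene rows, 24218 symbols matched RefSeq. Summary lines (20.8% to 26.1% of each table) stayed out. Counts were fitted with edgeR 4.0.16 (R 4.3.3; filterByExpr, TMM, quasi-likelihood F test, Benjamini-Hochberg over 13428 genes) without and with the replicate number as a block, and with DESeq2 1.42.0. Levels are TMM-scaled CPM. Standard errors (SE) were taken as |log2 fold change| divided by √F. Lists were counted, with no set test. The fits were tested on simulated data.

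Genes were named by a rule: 11 chosen genes (Mir21a, Vmp1, Pdcd4, Cdc25a, Il17a, Il17f, Il23r, Irf4, Ccr2, Peli1 and Rel), the 10 highest and 10 lowest called changes with the block (mean of at least 5 CPM, groups not overlapping), for each list up to 3 called members ranked on p, and the 5 top genes on p in the unblocked fit. The 10 highest and 10 lowest left out predicted, clone, immunoglobulin, T cell receptor segment, Y-linked and Xist names. Genes named beyond the rule were chosen after their values were seen. The members, the 30 gene lists and the 7 marker lists were chosen with earlier results of these data known. The 8 ATAC-seq samples and seed matches in transcripts are not analysed here. Some genes are not reported here.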

Additional observations from a re-analysis of the deposited data

How the results depend on the processing

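Blocking on replicate number, edgeR called 2287 genes higher and 2520 lower, against 0 and 0 without it. DESeq2 called 339 and 485 without the block and 1542 and 1348 with it. With the block, RLE scaling gave 2514 and 2434 calls, and no filter on low counts gave 2495 and 2791. Without the block, no filter gave 9 and 31, while RLE scaling and a filter of 1 CPM in 2 libraries left 0. Leaving out 1 library without the block gave 1 to 666 higher and 1 to 661 lower. The top of both ranges came without knockout replicate 1, and without control replicate 1 the counts were 12 and 61. A lone library is assumed there to vary like the other group. Leaving out a library with the block leaves no residual degrees of freedom and was not run. The cause of these shifts was not tested.

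For the replicate number, DESeq2 called 885 genes higher and 348 lower in replicate 2, and RLE scaling 1652 and 1071, beside 1370 and 1126. Most of the 105 named genes were chosen for passing with the block, so their passing there is no check. DESeq2 with the block called 98 of them. Ier3 reversed without control replicate 2, ranging from −1.54 to 0.35 on the log2 scale over the libraries left out. Median-ratio scaling shifted the median of all genes by 0.0167. Genes under 1 CPM, such as Il5, rest on few counts.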
